A study of Mus musculus with 10 samples.

Results

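The genes of 9 gut hormones and neuropeptides (Cck, Gip, Gcg, Sct, Tac1, Pyy, Nts, Sst and Ghrl) and Tph1, the gene of the enzyme that makes serotonin in the gut, were described across sorted intestinal and thymic epithelial cells. They were chosen by symbol from the GRCm38 annotation. These are 10 of 43432 gene identifiers in the count tables, and all 10 were among the 19281 genes that passed a filter on low counts. RNA-seq was performed on 3 cell populations of naive male mice of 12 weeks and genotype C57BL6.Il25(Flare25/Flare25). This homozygous reporter allele, which every group carries, marks cells that transcribe Il25. Live CD45-negative, EPCAM-positive cells of the small intestine (SI) were sorted by the reporter. The reporter-positive fraction gave 3 SI tuft cell libraries, and the reporter-negative fraction gave 3 SI epithelium libraries. Reporter-positive cells of the thymus gave 4 thymic tuft cell libraries. Each library came from 1 mouse, and 1 further SI tuft and 1 further SI epithelium library had been discarded by the authors. SI cells were freed with DTT and EDTA and thymic cells with Liberase TM and DNase I before a Percoll step, so that organ and dissociation cannot be told apart.

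Gut hormones are made by enteroendocrine cells, scattered secretory cells of the intestinal epithelium that release peptides or serotonin from granules in response to nutrients, microbes and irritants. Single cells usually make several of these products in combinations that change along the gut and along the crypt-villus axis, and serotonin is made by the enterochromaffin subtype. Tuft cells are a separate, sensory epithelial lineage, which in the gut produces IL-25 and other effectors. Medullary epithelial cells of the thymus are known to transcribe many genes of other tissues, peptide hormone genes among them.

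The promoter windows of 4 members are shown for these reasons: Cck had the highest level per kb in SI epithelium and Sct in SI tuft cells, Gcg held the most motif matches, and Sst was the member with a cyclic AMP response element. All 10 members matched a RefSeq start site (GRCm38.p6), and the 250 bases before each start were read on the gene's strand, 5′ to 3′. Capitals mark matches, on either strand, to the cyclic AMP response element TGACGTCA, the E-boxes CAGATG and CAGCTG, and the TATA box TATAAA. For Sst a stretch of 30 bases around its match is given.
Cck, chr9:121495695-121495944, minus strand: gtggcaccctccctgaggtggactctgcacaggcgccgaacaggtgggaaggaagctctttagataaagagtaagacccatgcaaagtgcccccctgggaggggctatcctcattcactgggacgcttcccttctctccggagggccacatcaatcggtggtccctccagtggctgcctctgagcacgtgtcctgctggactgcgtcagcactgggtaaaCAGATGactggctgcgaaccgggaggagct
Gcg, chr2:62483654-62483903, minus strand: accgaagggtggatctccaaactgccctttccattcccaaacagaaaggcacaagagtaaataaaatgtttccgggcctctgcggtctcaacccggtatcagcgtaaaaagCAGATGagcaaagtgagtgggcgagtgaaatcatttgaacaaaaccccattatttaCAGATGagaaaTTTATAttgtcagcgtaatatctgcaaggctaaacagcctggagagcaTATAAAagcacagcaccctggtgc
Sct, chr7:141279134-141279383, minus strand: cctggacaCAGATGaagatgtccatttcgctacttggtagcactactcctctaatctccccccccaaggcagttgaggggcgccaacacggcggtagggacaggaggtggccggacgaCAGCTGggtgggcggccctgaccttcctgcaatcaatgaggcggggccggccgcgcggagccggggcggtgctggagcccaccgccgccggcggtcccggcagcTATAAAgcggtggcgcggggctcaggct
Sst, chr16:23890874-23890903, minus strand: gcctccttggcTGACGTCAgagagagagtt
The cyclic AMP response element began 48 bases before the RefSeq start of Sst and was found in 1 of 10 members, against 1.55% of all 32851 promoter windows. The E-box CAGATG, a form bound by basic helix-loop-helix factors such as Neurod1, was found in 4 members (Cck, Gcg, Sct and Tac1), against 14.4% of windows. It began 30 bases before the start of Cck, 83 and 139 bases before that of Gcg and 242 bases before that of Sct. The E-box CAGCTG was found in 4 members (Gip, Sct, Nts and Ghrl), against 13% of windows. TATAAA was found in Gcg and Sct, against 12.4% of windows. The window of Sct held both E-boxes and the TATA box. The windows of Tac1, Nts and Sst, which end at the RefSeq start, overlap the gene's own GENCODE M21 exons by 182, 68 and 114 bases, and the printed stretch of Sst lies within its annotated gene. A match of letters shows no binding, and no binding was measured here.

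The libraries held 38659882 to 73574745 gene counts in total, and 35000 to 36000 SI tuft cells, 52000 to 57000 SI epithelial cells or 1350 to 1900 thymic tuft cells went into each. Levels are CPM, counts scaled to a common library size with TMM factors, and 3 counts in a library correspond to 0.0433 to 0.0817 CPM. The summed level of 9 tuft cell markers was 222 to 342 CPM in SI epithelium, 11830 to 14930 CPM in SI tuft cells and 4123 to 5130 CPM in thymic tuft cells. That of 7 medullary thymic epithelium markers was 1492 to 1681 CPM in thymic tuft cells and at most 10.3 CPM elsewhere. The 6 leukocyte markers summed to at most 15.5 CPM in SI epithelium, 167 to 198 CPM in SI tuft cells and 227 to 281 CPM in thymic tuft cells. In SI tuft cells Ptprc led this sum at 136 to 176 CPM, with the others at most 16.1 CPM. In thymic tuft cells Lyz2 (169 to 210 CPM) and Ptprc (49.3 to 71.7 CPM) led it, with the others at most 5.81 CPM. Mitochondrial genes took 18.6% to 23.7% of the counts in SI epithelium, 24.1% to 33.5% in SI tuft cells and 4.38% to 5.97% in thymic tuft cells. SI epithelium libraries 1, 2 and 3 and thymic libraries 3, 2 and 1 shared counts, mainly in pairs. Over 8 genes of the SI, such as Zg16, thymic libraries 3, 2 and 1 held 0.917%, 0.956% and 0.876% (medians) of the counts of their SI partner. No SI epithelium library had thymic library 4 as its partner. The 8 genes were chosen to be below 0.02% of the SI epithelium mean in library 4. Their low level there was thus set by that choice. Zg16, for one, was at 1.31 CPM, against 167 to 260 CPM in the other thymic libraries. Over 277 thymic genes the SI epithelium libraries held 0.587% to 0.601% of the counts of their thymic partner. In a joint fit of the thymic libraries the partner's share was 0.505% to 0.862%, and the next largest was 0.147% to 0.187%. Only the partner's share was subtracted in the fits below. The cause of the shared counts was not tested. For the 10 genes, low thymic values are therefore given below beside the partner's share.

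SI epithelium, in which enteroendocrine cells are included, had the highest mean of all 10 genes among the 3 groups. Per kilobase of exon the order of the mean levels there was Cck, Sst, Sct, Gip, Gcg, Ghrl, Tph1, Nts, Pyy and Tac1. Cck reached 4070 ± 959 CPM per kb (SD, n = 3) and Tac1 2.85 ± 0.517 CPM per kb (SD, n = 3). Neighbours in this order did not overlap over the 3 libraries, with the exceptions of Sct and Gip and of Tph1 and Nts. The summed CPM of the 10 genes was 9682, 10710 and 6999 in SI epithelium libraries 1, 2 and 3, and library 3 was lowest for Cck, Sst and Sct. In SI tuft libraries 2, 3 and 4 the sum was 312, 856 and 673 CPM. In thymic libraries 1 to 4 it was 177, 229, 150 and 195 CPM. No library of one group overlapped those of another in this sum.

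**Figure D1:**
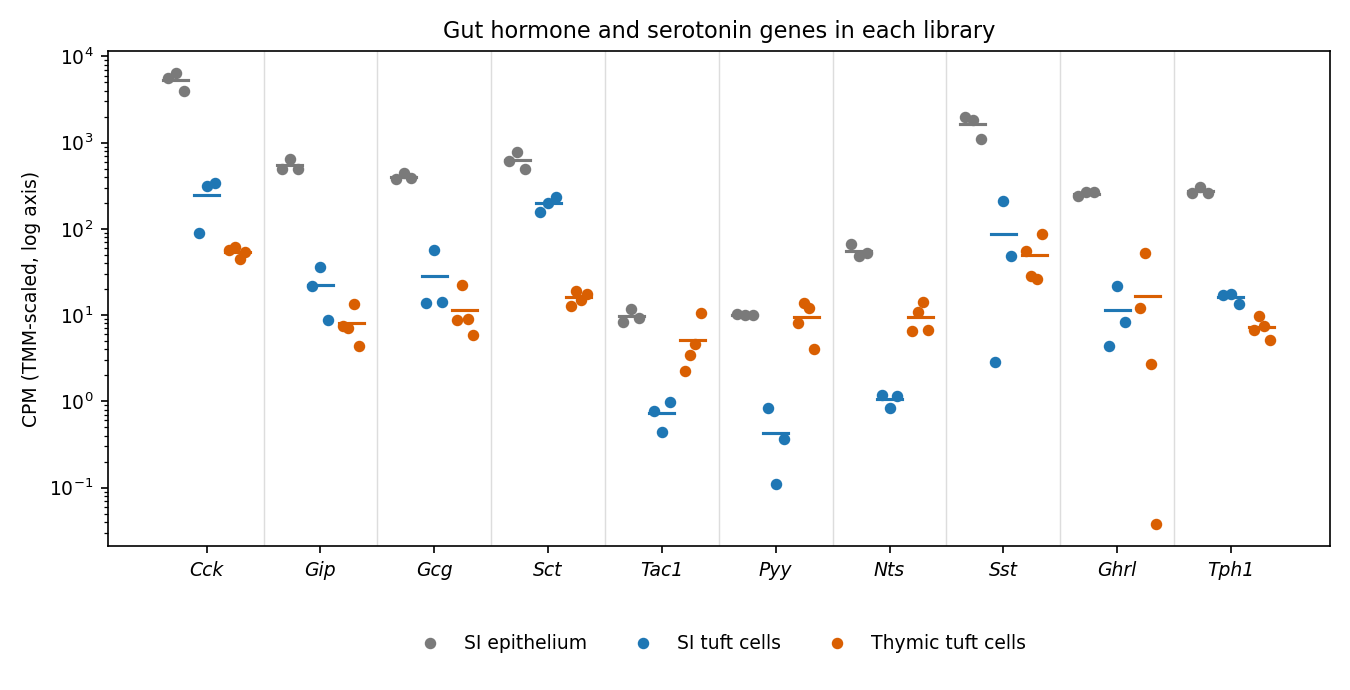
CPM (TMM-scaled, log axis) of the 10 genes in each library, one point per library and a bar for the group mean, with SI epithelium in grey, SI tuft cells in blue and thymic tuft cells in orange. All SI epithelium points lie above all SI tuft points for each gene, and for Tac1, Pyy and Nts all thymic points lie above the SI tuft points.

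The comparison of SI tuft cells with reporter-negative SI epithelium shows how much hormone and serotonin transcript is found in the tuft cells of the same organ. All 10 genes were lower in SI tuft cells, and for all 10 no SI tuft library reached the lowest epithelial one. Sct, which encodes secretin, stood at 31.5% of the epithelial level and the other 9 genes at 1.91% to 7.57%. Of all 19281 genes tested, 11.4% were called lower by the edgeR quasi-likelihood test (Benjamini-Hochberg adjusted p below 0.05) and 28.4% did not overlap in that direction. The median log2 fold change was -4.33 over the 10 genes and -0.10 over all genes tested. In bulk samples such as these, fewer cells of a type and less RNA per cell cannot be told apart.

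Among the hormones of the upper small intestine, Cck (ENSMUSG00000032532, chromosome 9, 121489824 to 121495694, minus strand) encodes cholecystokinin, which triggers gallbladder contraction and pancreatic enzyme release. It was at 5629, 6374 and 3933 CPM in SI epithelium libraries 1 to 3 and at 89.9, 313 and 341 CPM in SI tuft libraries 2 to 4. SI tuft library 2 was the lowest, and every SI tuft library was far below the epithelium. Cck fell by 4.42 on the log2 scale (SE 0.43, edgeR adjusted p = 1.43e-05). Gip (ENSMUSG00000014351, chromosome 11, 96024545 to 96030831, plus strand) encodes glucose-dependent insulinotropic polypeptide, an incretin. It was at 500, 638 and 493 CPM in SI epithelium and at 21.8, 35.7 and 8.77 CPM in SI tuft libraries 2 to 4. Gip fell by 4.62 (SE 0.52, edgeR adjusted p = 4.37e-05). Sct (ENSMUSG00000038580, chromosome 7, 141278330 to 141279133, minus strand) encodes secretin, which stimulates bicarbonate secretion. It was at 620, 784 and 495 CPM in SI epithelium and at 159, 202 and 236 CPM in SI tuft cells. The 3 SI tuft libraries lay close together, within 1.49-fold. Sct fell by 1.67 (SE 0.22, edgeR adjusted p = 0.000184), to 31.5% of the epithelial level (95% interval 22.5% to 44%).

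Gcg, Pyy and Nts are products of L and N cells, the enteroendocrine cells that are most frequent in the lower gut. Gcg (ENSMUSG00000000394, chromosome 2, 62474530 to 62483650, minus strand) encodes proglucagon, the precursor of GLP-1 and GLP-2. It was at 374, 446 and 386 CPM in SI epithelium and at 13.9, 56.9 and 14.2 CPM in SI tuft libraries 2 to 4, of which library 3 was high. Gcg fell by 3.83 (SE 0.61, edgeR adjusted p = 0.000705), and its log2 fold change was -4.84 without SI tuft library 3. Pyy (ENSMUSG00000017311, chromosome 11, 102106676 to 102107832, minus strand) encodes peptide YY, which slows gut transit and reduces appetite. It was the most even of the 10 genes in SI epithelium, at 10.2, 9.98 and 9.96 CPM, and was at 0.826, 0.109 and 0.370 CPM in SI tuft cells, from 34, 4 and 14 counts. Pyy fell by 4.51 (SE 0.73, edgeR adjusted p = 0.000772), and its log2 fold change was -5.37 without SI tuft library 2. Nts (ENSMUSG00000019890, chromosome 10, 102481756 to 102490486, minus strand) encodes neurotensin, which is released after fat intake. Its SI tuft libraries, at 1.19, 0.844 and 1.16 CPM, were within 1.41-fold of each other, whereas SI epithelium was at 66, 49 and 53.1 CPM. The remaining level was 1.91% of the epithelial one (95% interval 1.03% to 3.54%).

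Tac1 and Tph1 are products of enterochromaffin cells. Tac1 (ENSMUSG00000061762, chromosome 6, 7554879 to 7565834, plus strand) encodes substance P and neurokinin A. It was at 8.23, 11.6 and 9.19 CPM in SI epithelium and at 0.778, 0.436 and 0.977 CPM in SI tuft cells, and it fell by 3.72 (SE 0.68, edgeR adjusted p = 0.00181), and its log2 fold change was -4.35 with the replicate number as a block. Tph1 (ENSMUSG00000040046, chromosome 7, 46644641 to 46672537, minus strand) encodes tryptophan hydroxylase 1, the rate-limiting enzyme of serotonin synthesis outside the nervous system. It was at 262, 306 and 264 CPM in SI epithelium and at 17.2, 17.6 and 13.5 CPM in SI tuft cells. Both groups were tight, and Tph1 fell by 4.10 (SE 0.25, edgeR adjusted p = 2.33e-07), to 5.82% of the epithelial level (95% interval 4% to 8.46%).

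Sst (ENSMUSG00000004366, chromosome 16, 23889573 to 23890958, minus strand) encodes somatostatin, the inhibitory peptide of D cells. It was at 1975, 1828 and 1092 CPM in SI epithelium and at 2.84, 208 and 48.3 CPM in SI tuft libraries 2 to 4. The highest SI tuft library was 73.2 times the lowest, the widest range of the 10 genes in these 3 libraries. Sst fell by 4.24 (SE 1.05, edgeR adjusted p = 0.0123), and without SI tuft library 4 the adjusted p was 0.0564, in a range of 5.97e-05 to 0.0564 over 18 alternative settings. Its log2 fold change was -6.00 without SI tuft library 3, -3.67 without library 2 and -5.08 with the replicate number as a block. Ghrl (ENSMUSG00000064177, chromosome 6, 113716119 to 113719880, minus strand) encodes ghrelin, the appetite-stimulating hormone of X/A-like cells. Its exons overlap Gm26982 and Gm44033 on the other strand, and the library kit keeps no strand. It was at 239, 266 and 265 CPM in SI epithelium and at 4.37, 21.5 and 8.40 CPM in SI tuft cells. Ghrl fell by 4.49 (SE 1.39, edgeR adjusted p = 0.0365), but this call was lost in 8 of 17 alternatives, with adjusted p from 6.23e-05 to 0.253. It was lost without any single library of either SI group (adjusted p 0.0644 without SI tuft library 3 to 0.126 without SI tuft library 2). The call was also lost with the replicate number as a block (0.253) and with the shared counts subtracted (0.0551). The log2 fold change was -5.33 without SI tuft library 3 and -3.14 with the block. With the 2 SI groups alone in the fit the adjusted p was 6.23e-05.

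**Figure D2:**
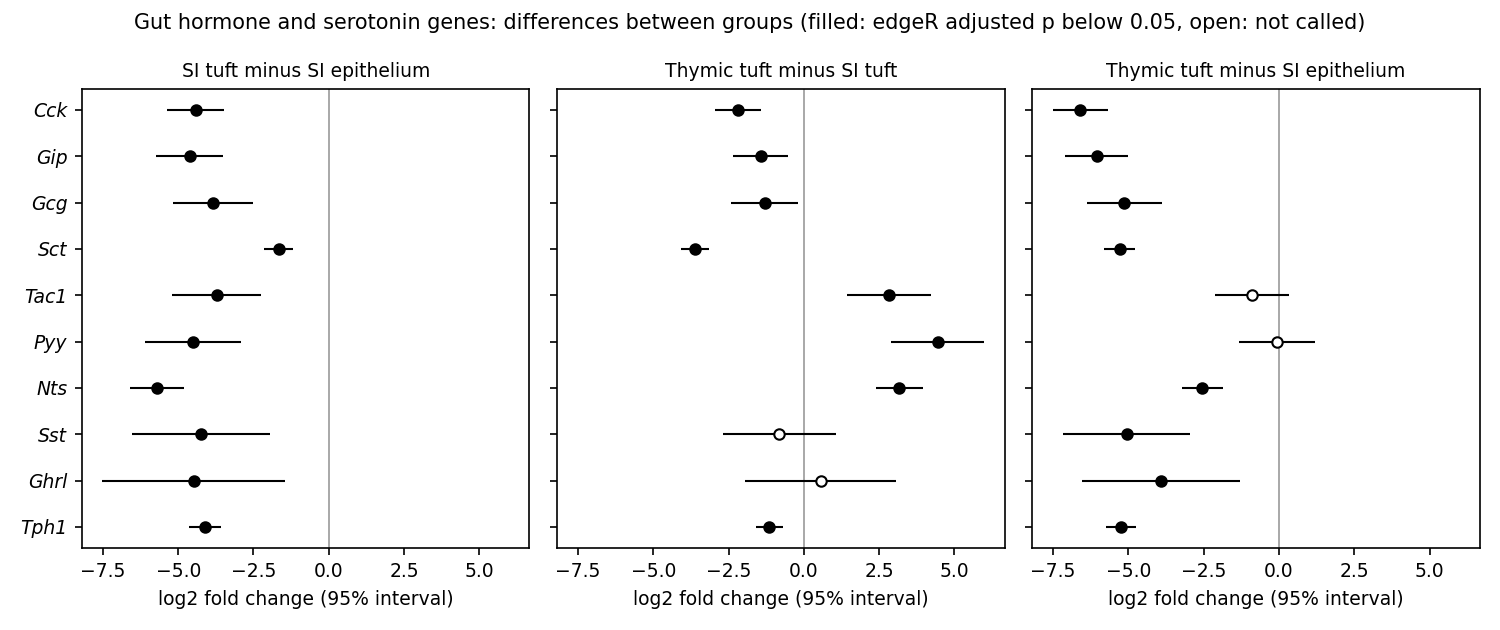
Log2 fold changes of the 10 genes with 95% intervals in the 3 comparisons, filled where the edgeR adjusted p was below 0.05 and open where it was not. In SI tuft cells against SI epithelium all 10 points are filled and below 0, with Sct at -1.67 nearest to 0, and in thymic against SI tuft cells 5 filled points are below and 3 above 0.

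The libraries of SI tuft cells differed among themselves, and the genes did not follow one common scale. As a share of the epithelial mean, SI tuft library 3 held 12.8% for Sst, 14.1% for Gcg, 8.39% for Ghrl and 6.56% for Gip, and in each it was the highest of the 3. The same library held 1.08% for Pyy, 4.5% for Tac1 and 1.51% for Nts, and in each it was the lowest of the 3. Library 2 held 0.174% for Sst and 1.69% for Cck but 25.1% for Sct and 6.21% for Tph1. The summed level of 8 enteroendocrine markers stood at 4.88%, 11.5% and 8.32% of the epithelial mean in SI tuft libraries 2, 3 and 4, led by the granule protein gene Chgb at 212, 520 and 365 CPM. Markers of other secretory cells stood at 2.02% to 2.50% (7 goblet cell markers) and 0.987% to 3.80% (6 Paneth cell markers). The 7 enterocyte markers were higher in SI tuft libraries than in the reporter-negative fraction, at 180% to 223% of its mean. Whether these other cells contribute to the hormone transcripts of the SI tuft libraries was not tested.

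**Figure D3:**
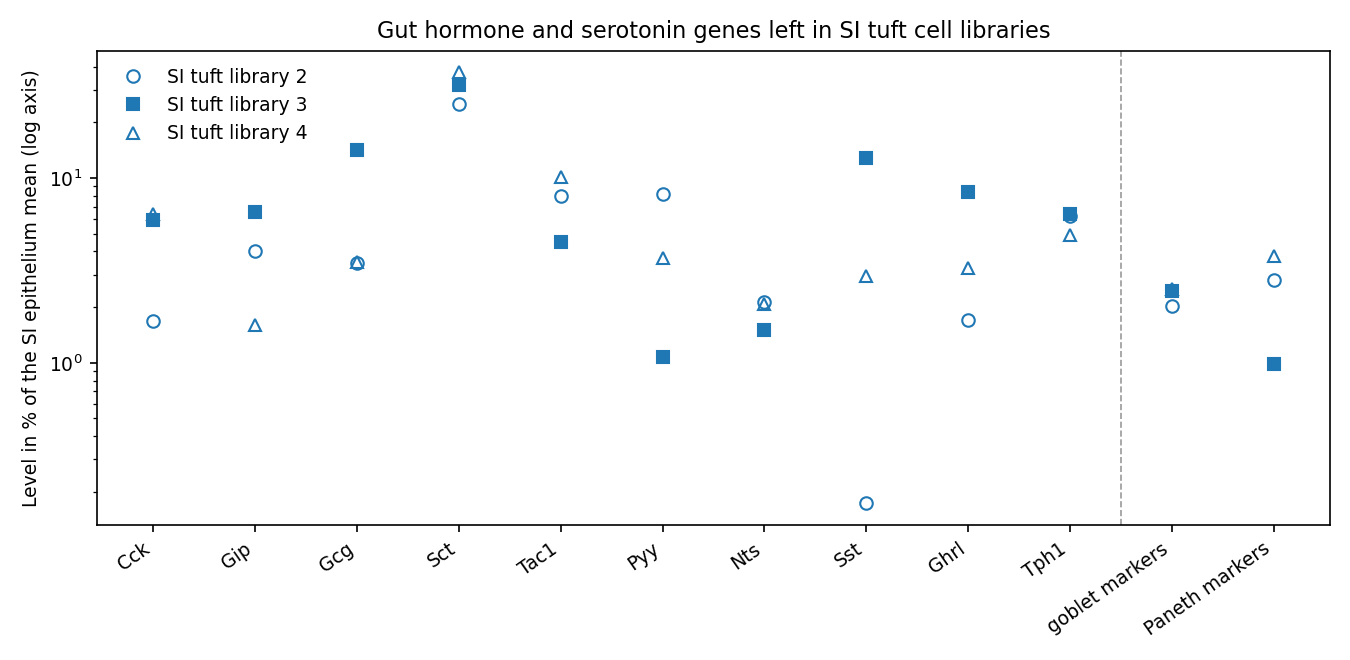
Level in SI tuft libraries 2 (circle), 3 (square) and 4 (triangle) as a percentage of the SI epithelium mean on a log axis, for the 10 genes and for the summed goblet and Paneth cell markers. Sct lies at 25.1% to 37.3%, above the other 9 genes, and Sst spreads from 0.174% to 12.8%.

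The lower bound of the interval for Sct, 22.5% of the epithelial level, lay above the upper bounds of 7 genes, from 3.54% for Nts to 21% for Tac1. The intervals of Sst (up to 26%) and Ghrl (up to 36.5%) overlapped that of Sct. Sct was set against the other genes after the levels were seen, so this comparison of intervals is a description with no test. Sct also headed the make-up of the hormone transcripts in SI tuft cells. Of the summed CPM per kb of the 10 genes, Sct took 66.7%, 32.8% and 50.3% in SI tuft libraries 2, 3 and 4 and 10.3% to 11.9% in SI epithelium. The means were 49.9 ± 16.9% and 11.3 ± 0.841% (SD, n = 3 each), and since Sct was singled out after these shares were seen, they are a description with no test. Cck took 45.5% to 47.8% in SI epithelium and 18.6%, 25.1% and 35.8% in SI tuft cells. Sst took 22.9% to 29.4% in SI epithelium and 1.07%, 30.2% and 9.19% in SI tuft cells. In the order of mean levels per kb in SI tuft cells, Sct came first and stood above Cck in all 3 libraries, although their ranges overlapped.

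**Figure D4:**
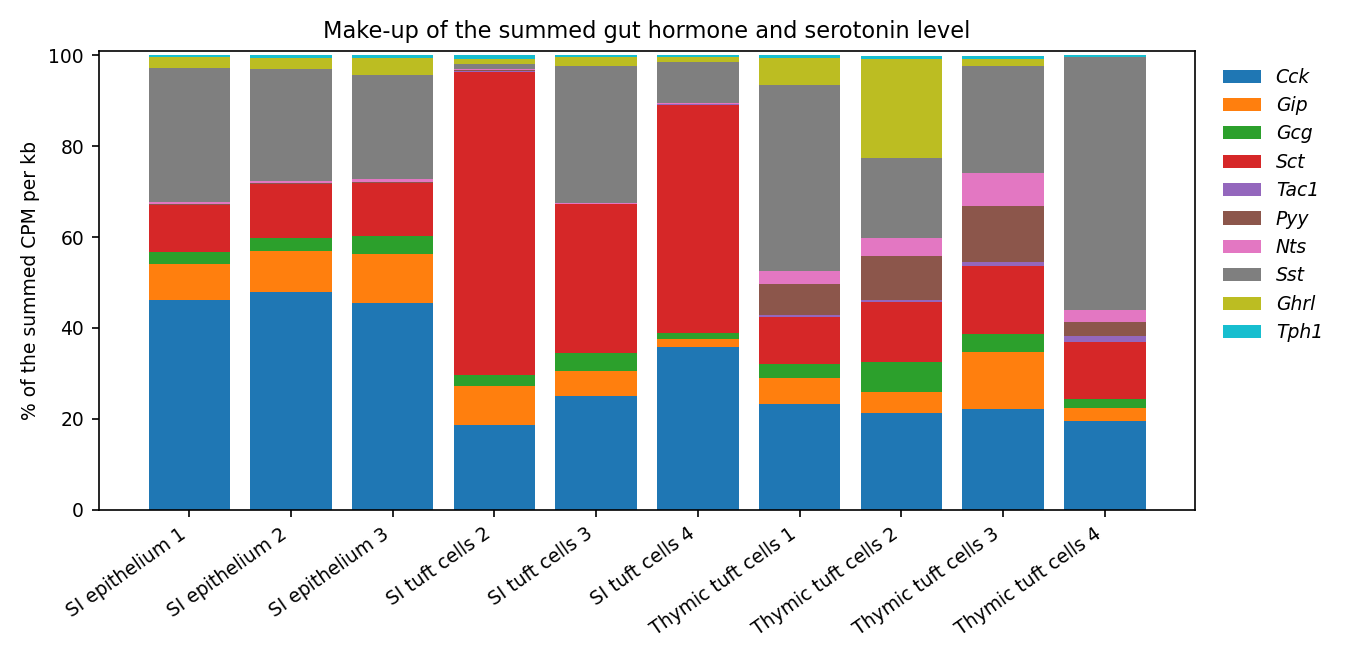
Make-up of the summed CPM per kb of the 10 genes in each of the 10 libraries, in percent, as stacked bars. Cck in blue takes 45.5% to 47.8% in SI epithelium, Sct in red takes 32.8% to 66.7% in SI tuft cells, and the thymic libraries hold visible shares of Pyy and Nts.

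Other genes of the enteroendocrine programme were counted in the same comparison. Of 28 transcription factors of enteroendocrine development, all of which passed the filter, 15 fell and 2 rose (median log2 fold change -2.90), where 11.4% of all genes fell and 10.9% rose. Leaving out SI epithelium library 3 or SI tuft library 3 left 9 lower genes. Atoh1, the factor that commits cells to the secretory lineage, fell from 151 ± 48.8 to 4.87 ± 0.434 CPM, and Foxa3 fell from 84.5 ± 11.1 to 4.25 ± 1.49 CPM (SD, n = 3 each here and in the next sentences). In SI epithelium the goblet cell markers summed to 108600 to 118100 CPM and the Paneth cell markers to 12460 to 16080 CPM. The enteroendocrine markers summed to 4567 to 6101 CPM there. Which secretory cells the falls of Atoh1 and Foxa3 belong to was not tested. St18 rose from 15.3 ± 0.243 to 118.5 ± 21.5 CPM and Prox1, whose exons overlap an antisense gene, from 21.1 ± 3.20 to 128 ± 28.7 CPM. Of 26 genes of hormone processing and granules, 19 fell and 1 rose (median -3.50). Syt7, a calcium sensor of granule release, fell from 93.7 ± 10.7 to 4.91 ± 3.80 CPM. Pcsk1n, which encodes an inhibitor of the prohormone convertase PCSK1, fell from 11.9 ± 3.64 to 0.709 ± 0.456 CPM. Sez6l2 rose from 13.3 ± 1.06 to 87.3 ± 10.7 CPM. Exons of Syt7, Pcsk1n and Sez6l2 overlap other genes.

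Of 20 genes of serotonin and amine handling besides Tph1, 17 passed the filter, 4 of them fell and none rose (median -0.05), where 11.4% of all genes fell and 10.9% rose. Trpa1, the irritant receptor of enterochromaffin cells, fell from 20.8 ± 3.76 to 1.51 ± 0.354 CPM. Ddc, the decarboxylase that completes serotonin synthesis, was at 74.7, 85.8 and 77.1 CPM in SI epithelium and at 74.5, 79.8 and 100.5 CPM in SI tuft cells, and these libraries overlapped. Of 26 other gut peptide genes, 21 passed the filter, 7 fell and none rose (median -3.36, or -0.14 with genes at 0 in a group set at their bound), against the same 11.4% and 10.9% of all genes. The count was 4 after subtraction of the shared counts, and also without SI epithelium library 2 or SI tuft library 2 or 3. Guca2a, which encodes guanylin, fell from 186 ± 18.4 to 18.1 ± 3.37 CPM. Among those 7 genes, Penk and Tac2 were at 0.0565 to 0.340 CPM in SI epithelium and at 0 in SI tuft cells, while the thymic libraries with which the epithelium shares counts held 8.64 to 21.8 CPM. Calcb, another of the 7, was at 0.0909 to 0.637 CPM in SI epithelium and at most 0.0528 CPM in SI tuft cells. The same thymic libraries held 29.5 to 66 CPM of it. Of 36 receptor genes of these hormones and of serotonin, 20 passed, 6 fell and 3 rose (median -2.43, or -1.10 with bounds), again against 11.4% and 10.9% of all genes, and without any 1 of the SI epithelium libraries 1 fell and 1 rose. Without SI tuft library 2, 3 or 4 the count of lower receptor genes was 1, 1 and 2. Glp1r, the GLP-1 receptor, was at 37.2 ± 5.58 CPM in SI epithelium and 3.60 ± 2.22 CPM in SI tuft cells (edgeR adjusted p = 0.0442). Sort1, a sorting receptor that binds neurotensin, rose from 180 ± 6.49 to 339 ± 10.5 CPM, and its exons overlap an antisense gene.

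Thymic against SI tuft cells sets tuft cells of both organs side by side. It shares the SI tuft libraries with the comparison above, and all 3 comparisons were drawn from one fit. Here the 10 genes divided: Cck, Gip, Gcg, Sct and Tph1 were lower in thymic tuft cells, Tac1, Pyy and Nts were higher, and Sst and Ghrl were not called. Of all genes tested, 23.1% were called lower and 28.5% higher by edgeR, so that the 3 genes called higher are close to the share over all genes. Of the 10 genes, 3 were lower without overlap of the groups (Cck, Sct and Tph1) and 3 were higher without overlap (Tac1, Pyy and Nts). Over all genes tested these shares were 24.9% and 26.3%, so that both counts are close to the share over all genes. The median log2 fold change was -0.98 over the 10 genes and 0.12 over all genes.

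Sct showed the largest difference of the 5 lower genes. It was at 12.7, 19.2, 15.1 and 17.5 CPM in thymic libraries 1 to 4, against 159 to 236 CPM in SI tuft cells. All 4 thymic libraries lay close together, and Sct fell by 3.63 (SE 0.21, edgeR adjusted p = 8.31e-08). Cck was at 57.1, 61.9, 45 and 54.6 CPM in the thymic libraries, within 1.38-fold of each other, and fell by 2.18 (SE 0.35, edgeR adjusted p = 0.000294). Tph1 was at 6.66, 9.71, 7.56 and 5.11 CPM, below the 13.5 to 17.6 CPM of SI tuft cells, and fell by 1.15 (SE 0.21, edgeR adjusted p = 0.000604). With only both tuft cell groups in the fit, the adjusted p of Tph1 was 0.0574, the highest of a range from 7.16e-05. Gip was at 7.45, 7.07, 13.6 and 4.37 CPM in the thymic libraries, of which library 3 lay above the lowest SI tuft library. Its log2 fold change was -1.44 (SE 0.42, edgeR adjusted p = 0.0128). Without SI tuft library 3 it was -0.92 with an adjusted p of 0.0927, the highest of a range from 0.00144, and with only both tuft cell groups the adjusted p was 0.0698. Gcg was at 8.87, 22.2, 8.90 and 5.84 CPM and overlapped the SI tuft libraries. Its log2 fold change of -1.30 (SE 0.51, edgeR adjusted p = 0.0495) was at the threshold and the call was lost in 13 of 19 alternatives, with adjusted p from 0.00832 to 0.578. Without SI tuft library 3, the library in which Gcg was high, it was -0.30 (adjusted p = 0.578). Removal of SI epithelium library 1, 2 or 3 or of thymic library 1, 3 or 4 also ended the call (adjusted p 0.0641 to 0.115).

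The 3 higher genes are those with the lowest levels in SI tuft cells. Pyy was at 8.14, 13.7, 12.2 and 4.09 CPM in thymic libraries 1 to 4, against at most 0.826 CPM in SI tuft cells. It was higher by 4.44 on the log2 scale (SE 0.71, edgeR adjusted p = 0.000269), and by 5.28 without SI tuft library 2. Nts was at 6.53, 10.9, 14.1 and 6.79 CPM, against at most 1.19 CPM, and was higher by 3.17 (SE 0.36, edgeR adjusted p = 1.57e-05). Tac1 was at 2.25, 3.47, 4.57 and 10.5 CPM, with library 4 the highest, against at most 0.977 CPM, and was higher by 2.83 (SE 0.63, edgeR adjusted p = 0.00283), or by 2.23 without thymic library 4. These 3 genes were also called higher with thymic library 4 as the only thymic library, as were 25.2% of all genes, and the log2 fold changes were 3.22, 2.67 and 3.85 for Pyy, Nts and Tac1. That fit assumes that a lone library varies like the other groups.

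Sst had the widest spread among the SI tuft libraries and Ghrl among the thymic ones. Sst was at 55.7, 28.4, 26.3 and 86.3 CPM in the thymic libraries, within the range of the SI tuft libraries. Its log2 fold change was -0.81 (95% interval -2.69 to 1.06, edgeR adjusted p = 0.456), and without SI tuft library 3 it was 0.93. Ghrl was at 12.1, 52.5, 2.73 and 0.0380 CPM, the last from 2 counts. Its log2 fold change was 0.56 (95% interval -1.95 to 3.07, edgeR adjusted p = 0.712). Without thymic library 2 it was -1.18 (adjusted p = 0.354), and with thymic library 4 alone it was -8.13 (adjusted p = 0.000705, the lowest of a range up to 0.936).

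Against SI epithelium, 8 of the 10 genes were lower in thymic tuft cells and Tac1 and Pyy were not called. Of all genes tested, 22.3% were called lower by edgeR. The 8 genes did not overlap between the groups, against 27.4% of all genes in that direction. The median log2 fold change was -5.09 over the 10 genes and 0.15 over all genes. Cck stood at 1.03% of the epithelial level (95% interval 0.545% to 1.94%), and Gip at 1.5% (0.718% to 3.12%). Sct stood at 2.55%, Tph1 at 2.62%, Gcg at 2.85% and Sst at 3.01% of it. Ghrl stood at 6.56% and Nts at 17.1%. The value of Ghrl rests on thymic library 2: its log2 fold change was -3.93, -5.67 without that library and -12.61 with thymic library 4 alone. With library 4 alone those of Gip and Gcg were -6.94 and -6.09 instead of -6.06 and -5.13, and with the shared counts subtracted those of Cck and Gip were -7.86 and -6.77 instead of -6.60 and -6.06. The call for Sst was lost with thymic library 4 alone (adjusted p = 0.0722, in a range from 2.54e-07). Pyy reached 94.8% of the epithelial level (95% interval 39.6% to 227%, edgeR adjusted p = 0.923), an interval that includes equal levels and differences beyond 2-fold in both directions. Tac1 reached 53.6% (95% interval 23.1% to 125%, edgeR adjusted p = 0.201). Without thymic library 4, the highest for Tac1, its log2 fold change was -1.49 instead of -0.90 and was called (adjusted p = 0.0256, the lowest of a range up to 0.842).

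Thymic values of genes that are abundant in SI epithelium have to be read beside the counts shared between libraries. Across the 8 SI genes used for the estimate, single genes in thymic libraries 1 to 3 stood at 0.703% to 1.79% of the partner's counts. Cck, at 1.04% to 1.34%, lay within this range in all 3 libraries, although it was above the 8 genes' own highest value in library 1, 1.02%. Gip lay within it in libraries 1 and 2 (1.39% and 1.25%) and above it in library 3 (3.55%), and in library 1 it was above that library's own 1.02%. Sst lay within it in libraries 2 and 3 (1.75% and 1.73%) and above it in library 1 (4.69%), and in library 2 it was above that library's own highest value, 1.59%. Ghrl was at 4.21%, 22.3% and 1.49% of the partner's counts in libraries 1 to 3, within the range in library 3. Gcg (2.12% to 5.61%), Sct (2.35% to 3.18%) and Tph1 (2.33% to 3.76%) were above it in all 3 libraries. Nts (11.3% to 27.9%), Tac1 (22.6% to 72.3%) and Pyy (75.2% to 156%) were farthest above it.

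With the partner's median share subtracted, Cck was left with 19.6, 7.84 and 5.39 CPM in thymic libraries 1 to 3, while library 4, from which nothing was subtracted, stood at 54.6 CPM. Before subtraction all 4 libraries were alike at 45 to 61.9 CPM. The log2 fold change of Cck against SI tuft cells moved from -2.18 to -3.41 with subtraction, and it was -2.18 with library 4 alone. That of Gip moved from -1.44 to -2.13 and -2.33, and that of Gcg was -2.27 with library 4 alone. In library 4 the 9 genes other than Ghrl ranged from 4.09 CPM for Pyy to 86.3 CPM for Sst. The direction and call of the 5 lower and 3 higher genes against SI tuft cells held with subtraction in the fit of all libraries and with library 4 alone. In these fits 21.5% and 24.6% of all genes were called lower, and with subtraction 29.2% were called higher. The summed enteroendocrine markers were at 201, 162, 99.3 and 84.9 CPM in thymic libraries 1 to 4. In library 4 Neurog3 and Fev, which define enteroendocrine progenitors and enterochromaffin cells, were at 0, Neurod1 was at 0.0380 CPM and Chgb at 2.64 CPM. Chga was at 47 CPM there (32.8 to 46.4 CPM in SI tuft cells), Insm1 at 23.1 CPM (at most 0.708 CPM), Scg2 at 10.2 CPM (2.14 to 28.7 CPM) and Pax6 at 2 CPM (at most 1.37 CPM). Chgb was at 84.5, 77.6 and 33.5 CPM in thymic libraries 1 to 3. The part of these markers in the thymic hormone levels was not tested. No partner share is given for the other genes named below, of which Guca2b (7.02, 6.69, 5.90 and 1.05 CPM in thymic libraries 1 to 4) and Pcsk1 (1.55, 2.09, 1.29 and 0.114 CPM) were also lowest in library 4.

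**Figure D5:**
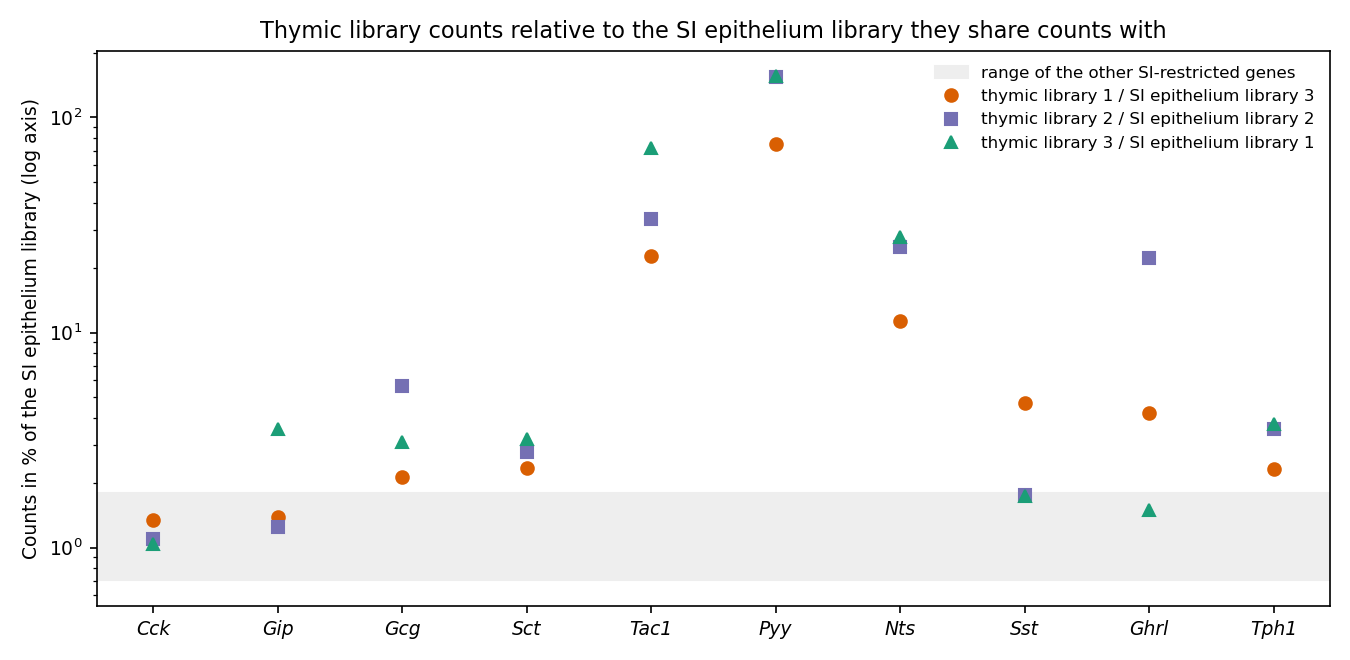
Counts of the 10 genes in thymic libraries 1, 2 and 3 as a percentage of the counts in the SI epithelium library with which each shares counts, on a log axis. The grey band is the range of the 8 other SI genes, 0.703% to 1.79%, and Cck lies inside it, whereas Tac1, Pyy and Nts lie between 11.3% and 156%.

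Per kilobase, the order of the mean levels in thymic tuft cells was Sst, Cck, Sct, Ghrl, Pyy, Gip, Nts, Gcg, Tac1 and Tph1. Most neighbours overlapped over the 4 libraries, and Cck above Sct and Gcg above Tac1 did not. Pyy thus ranked 5 in the thymus and 9 in both SI groups, and its mean was 15.1 ± 6.83 CPM per kb (SD, n = 4) in the thymus against 15.9 ± 0.213 CPM per kb (SD, n = 3) in SI epithelium. Sst took 41%, 17.6%, 23.4% and 55.7% of the summed CPM per kb in thymic libraries 1 to 4. Sct took 12.9 ± 1.92% (SD, n = 4), below every SI tuft library (32.8% to 66.7%), again as a description with no test.

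Of the 28 transcription factors, 7 rose and 7 fell against SI tuft cells (median log2 fold change -0.42), that is 7 of 28 each way where 28.5% of all genes rose and 23.1% fell. With thymic library 4 alone more fell, in a fit that rests on a lone thymic library. Leaving out SI epithelium library 2 or 3, SI tuft library 3 or thymic library 3 left 4 lower factors. Insm1, a factor of endocrine differentiation, was at 14.7, 41.5, 20.7 and 23.1 CPM in thymic libraries 1 to 4 and at most 0.708 CPM in SI tuft cells. It was higher by 5.86 (SE 0.60, edgeR adjusted p = 7.12e-06). Isl1, another endocrine and neuronal factor, rose from 0.744 ± 0.860 (SD, n = 3) to 15.7 ± 10.2 CPM (SD, n = 4). Mlxipl, which encodes the carbohydrate-responsive factor ChREBP, fell from 633 ± 45.4 to 33.7 ± 2.72 CPM, and its exons overlap an antisense gene. Pdx1 fell from 17.3 ± 3.09 to 1.20 ± 2.04 CPM, with library 4 at 4.26 CPM and the others at most 0.362 CPM. Against SI epithelium 4 rose and 16 fell (median -2.96), where 28.6% of all genes rose and 22.3% fell, among the latter Neurod1, at 54 to 78.7 CPM in SI epithelium and 0.0380 to 3.72 CPM in the thymus.

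Of the 26 processing and granule genes, 9 rose and 5 fell in thymic against SI tuft cells (median 0.32), where 28.5% of all genes rose and 23.1% fell. Pam, the peptide-amidating enzyme that completes hormones such as CCK, PYY and secretin, rose from 2.19 ± 0.716 (SD, n = 3) to 106 ± 20.8 CPM (SD, n = 4). Scg5, which encodes a chaperone of the convertase PCSK2, rose from 1.33 ± 0.785 to 22.7 ± 8.39 CPM. Dpp4, the peptidase that inactivates GLP-1 and GIP, fell from 184 ± 40.3 to 4.21 ± 2.63 CPM, and Chgb fell from 366 ± 154 to 49.6 ± 38.6 CPM. Exons of Pam and Dpp4 overlap other genes. Against SI epithelium 2 rose and 15 fell (median -1.59), where 28.6% of all genes rose and 22.3% fell, and Pcsk1, the convertase of most gut prohormones, fell from 63.4 ± 7.58 to 1.26 ± 0.834 CPM.

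Of the 17 serotonin and amine genes that passed the filter, 4 rose and 7 fell in thymic against SI tuft cells (median -0.51), where 28.5% of all genes rose and 23.1% fell. Ddc was at 5.43, 2.98, 3.05 and 0.894 CPM in thymic libraries 1 to 4, against 74.5 to 100.5 CPM in SI tuft cells. Tph1 and Ddc, the genes of both steps of serotonin synthesis, were thus lower in the thymus. Unlike Tph1, Ddc overlapped between SI tuft cells and SI epithelium. The 7 enterocyte markers summed to 147 to 352 CPM in thymic libraries and 24580 to 30450 CPM in SI tuft libraries. Whether enterocyte transcripts have a part in the difference of Ddc, or of other genes named here, was not tested. Maob, which degrades amines, fell from 55.6 ± 2.70 to 1.62 ± 1.58 CPM. Hdc, the histamine-forming decarboxylase, rose from 2.59 ± 1.77 to 124 ± 27.8 CPM, and Trpa1 rose from 1.51 ± 0.354 to 12.4 ± 9.70 CPM. Slc6a4, the serotonin transporter, was at 46 to 53.3 CPM in the thymus and 32.2 to 36.5 CPM in SI epithelium (edgeR adjusted p = 0.0437). Against SI epithelium 2 rose and 9 fell (median -0.76), where 28.6% of all genes rose and 22.3% fell. Of these, 1 rose without SI epithelium library 2 or 3 or thymic library 2 or 3.

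Among all genes, 28.5% rose and 23.1% fell in thymic against SI tuft cells, and 28.6% rose and 22.3% fell against SI epithelium. Genes with no count in either SI group, such as Npy and the receptor gene Cckbr, passed the filter only through the thymic libraries. They can only be higher there. Penk, Tac2, Calca, Htr7 and Htr1b, at no more than 0.340 CPM in any SI library, also passed through the thymic libraries and could hardly be lower there. Their differences and fold bounds below are thus no independent result. The counts and medians of the other gut peptide and receptor genes are therefore partly fixed by the filter. Of the 21 other gut peptide genes that passed the filter, 15 rose and 2 fell in thymic against SI tuft cells (median 7.03, or 5.17 with genes at 0 in a group set at their bound). Penk, which encodes enkephalins, was at 13.1, 21.8, 15.5 and 14.6 CPM in the thymic libraries and had no count in SI tuft cells, which makes it at least 200-fold higher against a floor of 3 counts in a library. Its exons overlap another gene. Tac2, which encodes neurokinin B, a relative of the Tac1 peptides, was at least 156-fold higher, with a mean of 12.7 ± 4.37 CPM (SD, n = 4). Guca2b, which encodes uroguanylin, fell from 348 ± 77.1 to 5.16 ± 2.79 CPM. Against SI epithelium 14 rose and 2 fell (median 4.71), and the calcitonin gene-related peptide genes Calca and Calcb were at 18.7 ± 12.5 and 39 ± 19.3 CPM in the thymus. Of the 20 receptor genes that passed, 9 rose and 2 fell against SI tuft cells (median 2.72) and 10 rose and 2 fell against SI epithelium (median 1.47). The latter count of higher genes was 5 without SI epithelium library 2 or 3, and 6 without SI epithelium library 1 or thymic library 1 or 3. Of the 2 lower receptor genes against SI tuft cells, 1 was left when SI epithelium library 1 or 2, SI tuft library 3 or 4 or thymic library 3 was omitted. The serotonin receptor genes Htr7, at 20.7 to 23.6 CPM, and Htr1b, at 9.26 to 26.4 CPM, had at most 0.191 and 0.170 CPM in any SI library. Htr7 was at least 276-fold higher in thymic than in SI tuft cells, and exons of Htr1b overlap an antisense gene.

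Across the 10 libraries the log2 levels of single members were correlated with the mean of the other 9. Pearson's r was 0.95 for Tph1, 0.93 for Gip and Gcg, 0.91 for Cck, 0.84 for Sst, 0.79 for Nts, 0.74 for Ghrl, 0.64 for Sct, 0.56 for Tac1 and 0.38 for Pyy. The libraries fall into the 3 groups and some share counts, so these values only describe the 10 libraries. Among 10740 other genes, those whose levels were most like the mean of the 10 members were Pla2g10 (r = 0.991), Txndc5 (0.989), Cpe (0.983), Sytl2 (0.983), Hnrnpk (0.983), Eif4b (0.98), Ets2 (0.978) and Mllt3 (0.976). Cpe, which encodes carboxypeptidase E of prohormone processing, had means of 79.7 CPM in SI epithelium, 9.72 CPM in SI tuft cells and 9.14 CPM in thymic tuft cells.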

How the data were processed

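The authors deposited gene counts. Per the submitters' processing notes they used STAR, the GRCm38 genome and DESeq2, for which no versions are named. Per the labels' protocols, poly(A) RNA was amplified with NuGEN Ovation V2 and made into Nextera XT libraries, which keep no strand. The deposited counts were used as they were. Symbols, coordinates and exon lengths came from GENCODE M21 by identifier (42548 of 43432 found, 884 without a symbol), and promoter windows from RefSeq GRCm38.p6. The members and lists were chosen with earlier results of these data known.

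Genes were kept by filterByExpr (minimum count 10, total 15), scaled by TMM, and tested with edgeR's quasi-likelihood test. One fit of the 10 libraries held 1 mean for each group, and 3 contrasts were each adjusted by the Benjamini-Hochberg method over 19281 genes (called below 0.05). Replicates were separate mice. Per list and comparison, named genes came from the 2 called genes with the largest change each way. These needed a mean of 10 CPM or more in the higher group and no overlap of the groups. Some that met this rule, such as Slc38a11 among the serotonin and amine genes, were not described. Zg16, Ddc in SI tuft against SI epithelium, Chgb in the marker list, the other enteroendocrine markers, the single leukocyte markers and the shares of Sct were chosen after the values were seen. So were Pdx1, Penk, Tac2, Calcb and Htr7 outside their comparison. On simulated counts 53%, 51% and 53% of genes changed 4-fold and 9%, 9% and 8% of those changed 2-fold were recovered. These values are for the contrasts of SI tuft cells with epithelium, of both tuft cell groups and of thymic tuft cells with epithelium, over 18776, 18744 and 18780 genes. The simulation changed 200 genes, and 1.59%, 3.23% and 4.69% of the genes called were false. In the data 22.3%, 51.6% and 50.9% of genes were called, so recovery there can differ from the simulated one. Alternatives were DESeq2 size factors, the DESeq2 Wald test, no filter or a minimum of 10 CPM in 3 libraries, fits of 2 groups, the replicate number as a block, removal of each library, subtraction of the shared counts and thymic library 4 as the only thymic library. Subtraction with a fit of 2 groups was added after the data were seen. R 4.3.3, edgeR 4.0.16 and DESeq2 1.42.0 were used.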

Additional observations from a re-analysis of the deposited data

How the results depend on the processing

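The replicate numbers are shared between groups, but the deviations of same-numbered libraries correlated at only -0.0634 to 0.0707, so the number was not treated as a pairing. With it as a replicate block, 9 members were lower in SI tuft cells against epithelium (10 without it, and 8.12% of all genes with it), where Ghrl lost its call, and 4 were lower and 3 higher in thymic against SI tuft cells (5 and 3 without it). The block also gave 3 lower receptor genes in SI tuft cells (6 without it) and 1 lower receptor gene in thymic against SI tuft cells (2 without it). It gave 1 higher serotonin and amine gene in thymic tuft cells against SI epithelium (2 without it). With the block 21.6% of all genes were lower and 24.7% higher in thymic against SI tuft cells, and 25.4% higher against SI epithelium.

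The 10 members lower in SI tuft cells were 8 to 10 over all alternatives, and the 8 lower in thymic tuft cells against SI epithelium were 7 to 9. The 5 lower in thymic against SI tuft cells were 2 with only both groups in the fit (17.3% of all genes) and 3 to 5 with single libraries left out. With only 2 groups in the fit, with or without subtraction, 3 serotonin and amine genes were higher in SI tuft cells against epithelium. In thymic against SI tuft cells 3 transcription factors, 3 processing genes and 1 receptor gene were lower. Without and with subtraction, 21.6% and 22% of all genes were higher in the first comparison, and 17.3% and 17% were lower in the second. With subtraction in the fit of all libraries, 4 other gut peptides were lower in SI tuft cells, as were 9.19% of all genes. The filter of 10 CPM, which tests fewer genes, left 2 lower and 1 higher receptor genes in SI tuft cells. In thymic against SI tuft cells it left 4 lower transcription factors, 7 higher other peptides and 0 lower and 2 higher receptor genes, and against SI epithelium 6 higher peptides and 1 lower and 3 higher receptor genes. DESeq2 size factors gave 4 lower transcription factors in thymic against SI tuft cells. The DESeq2 Wald test gave 7 higher serotonin and amine genes there (33.7% of all genes) and 4 lower receptor genes against SI epithelium (18.8% of all genes). With thymic library 4 alone these were 13 lower transcription factors and 6 lower receptor genes, respectively.

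With single libraries left out, lower genes in SI tuft cells numbered 9 to 21 transcription factors, 4 to 8 other peptides and 1 to 7 receptors, and 1 to 3 receptors were higher. In thymic against SI tuft cells 4 to 8 transcription factors and 1 to 3 receptors were lower. Against SI epithelium 1 to 3 serotonin and amine genes and 5 to 10 receptors were higher.

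Directions reversed only for members that were not called. Against SI tuft cells, Sst (-0.81) was at 0.93 without SI tuft library 3, and at -1.40 to 0.93 over all single omissions. Ghrl (0.56) was at -1.35 with the block and -8.13 with library 4 alone, and at -1.18 to 1.39 over single omissions, the lowest without thymic library 2. Against SI epithelium, Tac1 was at 0.13 with library 4 alone. Pyy, at -0.08, was at 0.15 with DESeq2 size factors and with the Wald test, 0.03 with the filter of 10 CPM, 0.00 with the block, and -0.29 to 0.18 over single omissions, above 0 without thymic library 1 (0.01) or 4 (0.18). Apart from the filter and the fits with fewer libraries, the cause of these changes was not tested. The spread within groups (biological coefficient of variation 0.26 for epithelium, 0.49 for SI tuft cells and 0.785 for the thymus) limits what could be called, and Pyy, Tac1 and Nts rest on 4 to 49 counts in each SI tuft library.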

Other observations

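Single thymic libraries held high levels of single gut peptide genes, in different libraries for different genes. These values were singled out after they were seen. For the members, Dixon's ratio was taken over the CPM of the thymic libraries. It is the gap between an outlying library and its nearest neighbour, divided by the range. The ratio was 0.77 for Ghrl, 0.719 for Tac1, 0.51 for Sst, 0.666 for Gip and 0.813 for Gcg. It stayed below the critical value for every member, so that no library was called outlying. Cartpt, Pdx1, Glp1r, Calca and Calcb were not tested in this way. Ghrl was at 52.5 CPM in thymic library 2 and between 0.0380 and 12.1 CPM in the others, so that the highest library was 1380 times the lowest. Cartpt, which encodes the CART peptide, was at 6.37 CPM in thymic library 4, against 0.202 to 0.378 CPM in the other thymic libraries and 10.2 to 11.6 CPM in SI epithelium. In the same library Tac1 and Sst had their highest thymic levels, at 10.5 and 86.3 CPM. Pdx1 and Glp1r were also highest there, at 4.26 and 6.65 CPM, against at most 0.362 and 1.75 CPM in thymic libraries 1 to 3. Gip was highest in thymic library 3 (13.6 CPM) and Gcg in thymic library 2 (22.2 CPM). Calca was highest in thymic library 1 (34.9 CPM, against 8.29 to 21.9 CPM in the others) and Calcb in thymic library 2 (66 CPM, against 21.9 to 38.6 CPM).

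Sct differed from this, with thymic libraries within 1.52-fold of each other, and so did Cck (1.38-fold) before the shared counts were subtracted. Thymic tuft cell libraries were made from 1350 to 1900 cells, against 35000 or more in the SI groups, and whether cell number has a part in these differences between libraries was not tested.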
